A study of Capra hircus with 6 samples.

Results

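The enzymes and the chaperone that modify, fold and crosslink collagen were examined in dermal papilla cells of secondary hair follicles (SHF-DPCs) treated with all-trans retinoic acid (ATRA). The 10 members were taken by name from the deposited count table of 15944 genes: LOX, LOXL1, LOXL2, PLOD1, PLOD2, P4HA1, P4HA2, SERPINH1, COLGALT1 and COLGALT2. P4HA2 is listed there under a LOC number and was matched by the symbol column. All 10 passed the filter on low counts, among 12588 genes tested. COLGALT2 passed it on the ATRA libraries alone.

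The cells were wild-type primary cultures of Capra hircus, isolated from the shoulder skin of Albas cashmere goats aged 3 years and used at passages 4 to 7 in medium with 10% serum. The ATRA-treated group (3 libraries) received ATRA at 100 µM for 24 h, and the control group (3 libraries) was cultured without it. The cells treated with ATRA came from 3 animals, and the sources used here do not say which animal gave which library, nor whether the same animals gave the control libraries. Poly(A) RNA was sequenced. The experiment is on cultured cells without the follicle's epithelium, at a single dose and a single time. At this dose the study reported hardly any cells making DNA (EdU), more apoptotic cells (TUNEL) and a larger share of cells in G1 phase. Whether that state of the cultures bears on the members was not tested. The dermal papilla holds the fibroblast-like cells that instruct hair growth, and ATRA is the vitamin A metabolite that activates the retinoic acid receptors.

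The control libraries held between 36887160 and 38012771 counts each, and the ATRA libraries between 35532339 and 36870939. Levels are given as CPM, the count relative to the library's total, scaled by TMM, a method that assumes most genes do not change and corrects for a few very abundant ones. Differences are log2 fold changes (log2FC, ATRA minus control) with a standard error (SE) from edgeR's quasi-likelihood test, and a gene was called where its adjusted p was under 0.05. The median log2FC of all genes tested was 0.04 with TMM and 0.52 with scaling by library size only. A member's change with library size only was therefore less negative by about that shift. With TMM, 40.9% of all genes tested were called higher and 38.7% lower. With library size only, the shares were 62.9% and 22.7%. With TMM 79.7% were called in either direction, so the assumption that most genes do not change was not met at this threshold. The TMM factor averaged 0.847 in the control libraries and 1.18 in the ATRA libraries. RLE and upper-quartile scaling gave a median log2FC of 0.02 and 0.11, near that with TMM. Their calls are therefore little separate support for a direction. Which scaling is nearest to the RNA per cell was not tested. RNA-seq of a culture cannot tell fewer cells of a type from less RNA per cell.

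Of 14 dermal papilla and fibroblast markers, 10 reached 1 CPM in the control group. Their summed level lay between 31571 and 34313 CPM in the control libraries and between 2255 and 2294 CPM with ATRA. All 10 that were tested were called lower, as were 38.7% of all genes tested. ACTA2, the α-smooth muscle actin gene, averaged 6582 ± 462 CPM without ATRA and 8.37 ± 0.829 CPM with it (SD, n = 3 each). The counting may have split its reads among closely similar actin genes. Of the 10 tested markers, 8 were called lower and none higher with library size only, beside 22.7% and 62.9% of all genes. PROM1 had 0 or 1 count in each library. The study stained SHF-DPCs for CD133, the protein that PROM1 encodes, and reported it as positive. ALPL and CORIN, which mark the dermal papilla in other settings, also had 0 or 1 count in each library. SOX2, likewise not tested, had 5, 0 and 2 counts in the control libraries and 10, 16 and 9 with ATRA. Keratinocyte markers summed to 0.741 CPM at most in any library, and KRT5, KRT15 and TP63 were at 0 in all ATRA libraries. The endothelial markers (5 of 6 listed) summed to 0.903 to 1.24 CPM in the control group and 6.19 to 9.16 CPM with ATRA, and most of that sum was PECAM1, with 0 counts in each control library and 242, 340 and 206 with ATRA. CDH5 had 0 counts in each control library and 0, 1 and 0 with ATRA, KDR had 5, 6 and 10 counts against 2, 1 and 0, VWF was not called, and TEK was called higher at 0.619 against 1.13 CPM. The leukocyte markers (4 of 5 listed, without PTPRC) summed to 9.24 to 12.9 CPM in the control group and 41.3 to 44.2 CPM with ATRA. Most of that sum was CD14 and CD68. CD14 had 172, 212 and 277 counts in the control libraries and 1392, 1377 and 1264 with ATRA. CD68 had 176, 84 and 133 counts against 509, 466 and 437. CD3E had 1, 0 and 1 counts against 2, 5 and 3, and CSF1R had 5, 3 and 4 against 7, 3 and 5. Melanocyte markers (2 of 5 listed) summed to 3.80 to 4.30 CPM in the control group and 1.97 to 2.34 CPM with ATRA. Whether other cell types were present, or had a part in the results below, was not tested.

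Collagen is built in steps. In the endoplasmic reticulum, prolyl 4-hydroxylases add the hydroxyl groups that keep the triple helix stable at body temperature, and lysyl hydroxylases and galactosyltransferases modify selected lysines. A dedicated chaperone, HSP47, holds the folded helix. Outside the cell the propeptides are cut off, and copper-dependent lysyl oxidases convert lysines to the reactive aldehydes from which the crosslinks of collagen and elastin form. The hydroxylases need iron, oxygen, 2-oxoglutarate and ascorbate.

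Of the 10 members, 9 fell and 1 rose with ATRA at an adjusted p under 0.05 (edgeR's quasi-likelihood test), where 38.7% and 40.9% of all genes tested were called in those directions and 79.7% in either. The threshold of the study was a log2FC beyond 1 with an unadjusted p under 0.05. The study took p from the t.test function, while p here is from edgeR's test on the filtered genes. A fall past this threshold was met by 6 members, against 17.3% of all genes tested. The single member that rose, COLGALT2, met the same threshold upward, as 13.7% of all genes did. It passed the filter on its ATRA libraries alone, so its call is a description only. For each member all 3 ATRA libraries lay on one side of all 3 control libraries. Separation on the lower side was seen in 39.0% of all genes tested on the higher side in 41.2%, and on either side in 80.1%. The median log2FC of the members was -1.46. Together the 10 genes took 0.545% to 0.551% of all counts in the control libraries and 0.278% to 0.283% in the ATRA libraries.

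**Figure D1:**
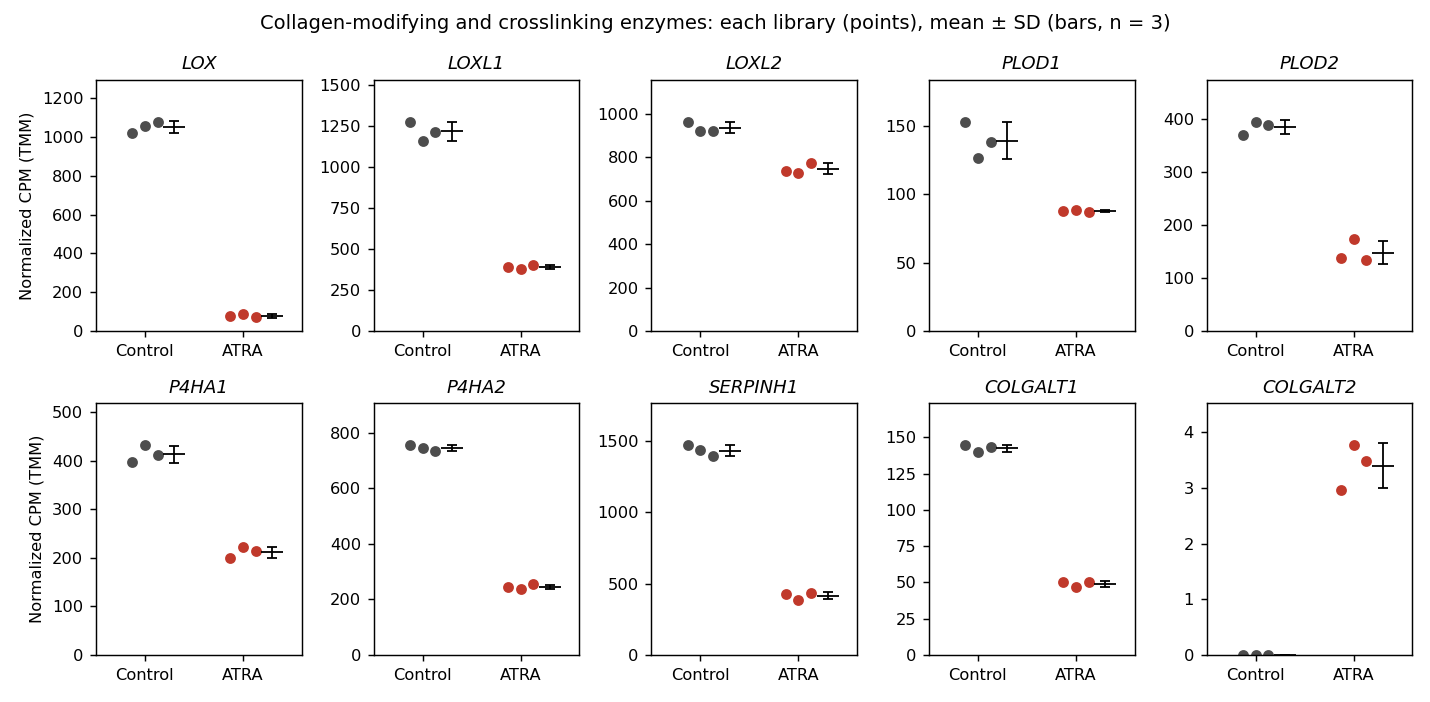
Normalized CPM (TMM) of each member in the 3 control libraries (grey points) and the 3 ATRA libraries (red points), with the mean ± SD of each group beside them and every axis starting at 0. The groups are apart in every panel. LOX shows the largest proportional fall, from 1050.4 to 79.4 CPM, and COLGALT2 is at 0 in the control libraries.

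Among the crosslinking enzymes, the fall was very unequal. LOX encodes lysyl oxidase, the founding member of the family. Its level was 1019, 1055 and 1077 CPM in the control libraries and 77.4, 90.0 and 70.8 CPM in the ATRA libraries. The lowest control library was thus far above the highest ATRA library. LOX fell to 7.56% of its control level (log2FC -3.73, SE 0.0805, adjusted p = 4.99e-18). Only 3.21% of all genes tested had a lower log2FC.

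LOXL1 encodes an oxidase best known for its part in elastic fibres. It had 1279, 1163 and 1218 CPM in the control libraries and 394, 382 and 405 CPM with ATRA. Its level with ATRA was 32.2% of the control level (log2FC -1.63, SE 0.0594, adjusted p = 1.14e-14), and the spread within either group was small beside that difference.

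LOXL2 encodes an oxidase that acts on collagen IV of basement membranes, among other substrates. It had 963, 919 and 920.4 CPM in the control libraries and 738, 727 and 775 CPM with ATRA. With TMM it fell to 79.9% of the control level (log2FC -0.32, SE 0.0564, adjusted p = 4.21e-05), while with library size only it rose, at a log2FC of 0.16 (adjusted p = 0.0106). Its unscaled counts differed little, from 29566 to 29898 in the control libraries and from 31885 to 32087 with ATRA. The direction of LOXL2 is therefore set by the scaling, and LOXL2 is the one member for which this holds among the 4 other scalings tried.

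Ratios of counts within a library do not depend on the scaling. The 6 ratios between members of a family were compared by an exact permutation test, two-sided, whose smallest p with 3 libraries against 3 is 0.1. Each of the 6 gave an exact p = 0.1, also after Benjamini-Hochberg adjustment over the 6, so none could pass 0.05. The ratio of LOX to LOXL2 fell by 3.41 on the log2 scale (SE 0.134), or 10.6-fold. That of LOX to LOXL1 fell by 2.10 (SE 0.137), or 4.29-fold, and that of LOXL1 to LOXL2 fell by 1.31 (SE 0.0240), or 2.48-fold. In each of these ratios the groups did not overlap.

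The composition of the lysyl oxidase family changed with these ratios. Of the counts on LOX and LOXL1 to LOXL4, LOX took 28.7%, 31.1% and 30.9% in the control libraries and 5.86%, 6.90% and 5.19% with ATRA. LOXL2 took 27.2%, 27.1% and 26.4% in the control libraries and 55.8%, 55.8% and 56.9% with ATRA. The share of LOX was thus lower and that of LOXL2 higher in every ATRA library. LOXL1 took 35.1% ± 0.881 in the control group and 29.6% ± 0.248 with ATRA (SD, n = 3 each). These shares are of reads and not per length, so they compare a gene between groups and not genes with each other. The family's summed level was 3474 ± 80.1 CPM in the control group and 1330 ± 29.7 CPM with ATRA (SD, n = 3 each).

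**Figure D2:**
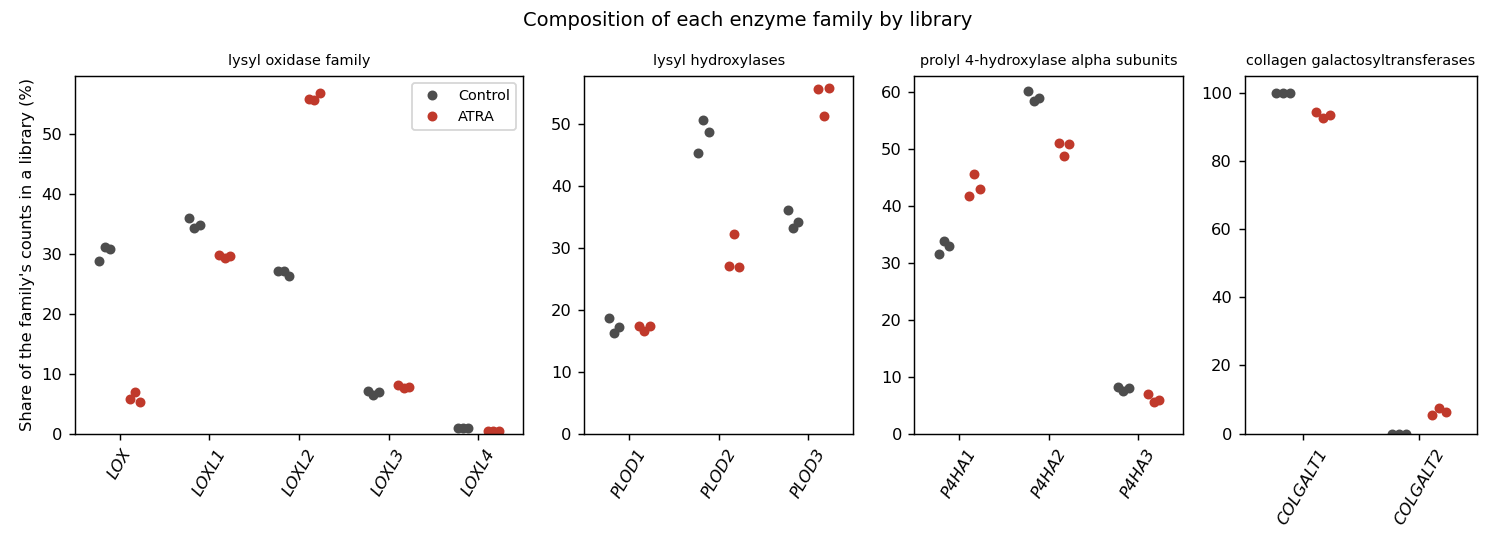
Share of each gene in the counts of its family, in percent of the family's counts within a library, for 3 control (grey) and 3 ATRA (red) libraries. LOX drops from about 30.2% to 5.98% of the lysyl oxidase family and LOXL2 climbs from 26.9% to 56.2%, PLOD3 climbs from 34.5% to 54.2% of the lysyl hydroxylases, and COLGALT2 appears among the galactosyltransferases.

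The lysyl hydroxylases hydroxylate collagen lysines, which sets the kind of crosslink that later forms. PLOD2 encodes the form that acts on the telopeptides, the non-helical ends of the chains. It had 369, 395 and 389 CPM in the control libraries and 137, 173 and 134 CPM with ATRA. The second ATRA library stood above the other two, and all 3 lay below the control libraries. PLOD2 fell to 38.5% of its control level (log2FC -1.38, SE 0.0794, adjusted p = 2.11e-11), and with library size only its log2FC was -0.90.

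PLOD1 encodes a form that acts on the triple helix. It had 153, 127 and 138 CPM in the control libraries and 87.8, 88.4 and 86.9 CPM with ATRA. The control libraries spread more (coefficient of variation 9.52%) than the ATRA libraries (0.875%). PLOD1 fell to 63.0% of its control level (log2FC -0.67, SE 0.0660, adjusted p = 3.32e-08), and with library size only its log2FC was -0.19 (adjusted p = 0.0147).

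The ratio of PLOD2 to PLOD1 fell by 0.72 on the log2 scale (SE 0.154), or 1.65-fold, with no overlap between the groups. Of the counts on PLOD1, PLOD2 and PLOD3, PLOD2 took 48.1% ± 2.69 in the control group and 28.7% ± 3.08 with ATRA (SD, n = 3 each). PLOD1 took 17.4% ± 1.26 and 17.1% ± 0.493 (SD, n = 3 each), and the groups overlapped. The remainder was PLOD3, whose product can also glycosylate hydroxylysine, at 34.5% ± 1.43 and 54.2% ± 2.58 (SD, n = 3 each). PLOD3 itself was not called (276 ± 17.6 against 278 ± 3.64 CPM, SD, n = 3 each, log2FC 0.01, SE 0.0577, adjusted p = 0.873), and with library size only it rose, at a log2FC of 0.49.

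Prolyl 4-hydroxylase is a tetramer of catalytic α subunits, encoded by P4HA1 to P4HA3, and the β subunit protein disulfide isomerase, encoded by P4HB. P4HA1 had 397, 432 and 411 CPM in the control libraries and 199.8, 222 and 214 CPM with ATRA. It fell to 51.2% of its control level (log2FC -0.96, SE 0.0591, adjusted p = 3.11e-11), just short of the study's fold threshold, and its log2FC was -0.49 with library size only. P4HA2 had 755, 746 and 735 CPM in the control libraries and 244, 237 and 254 CPM with ATRA. It fell further, to 32.9% of its control level (log2FC -1.60, SE 0.0565, adjusted p = 6.99e-15).

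The ratio of P4HA2 to P4HA1 fell by 0.64 on the log2 scale (SE 0.0712), or 1.56-fold, and the groups did not overlap. P4HA2 took 59.2% ± 0.842 of the counts on the 3 α subunit genes in the control group and 50.3% ± 1.29 with ATRA, while P4HA1 took 32.9% ± 1.15 and 43.5% ± 1.96 (SD, n = 3 each). P4HB fell less, from 1311 ± 22.7 to 816 ± 33.4 CPM (SD, n = 3 each, log2FC -0.68, SE 0.0569).

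SERPINH1 encodes HSP47, the chaperone that binds the collagen triple helix. It had 1468, 1433 and 1391 CPM in the control libraries and 424, 388 and 436 CPM with ATRA. The groups lay far apart beside the spread within them. SERPINH1 fell to 29.1% of its control level (log2FC -1.78, SE 0.0617, adjusted p = 5.27e-15), which after LOX was the lowest log2FC of the members.

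COLGALT1 and COLGALT2 encode the galactosyltransferases that place galactose on hydroxylysine. COLGALT1 had 145, 140.0 and 143 CPM in the control libraries and 50.2, 46.5 and 50.3 CPM with ATRA. It fell to 34.4% of its control level (log2FC -1.54, SE 0.0595, adjusted p = 2.76e-14). For COLGALT2 no control library held a count, and the ATRA libraries held 128, 166 and 144.

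COLGALT2 thus went in the opposite direction to its paralog. Its level with ATRA was 3.40 ± 0.407 CPM (SD, n = 3), at least 35.2-fold higher than the control group when 3 counts per library are taken as the floor. COLGALT2 passed the filter on low counts through the ATRA libraries alone, so its test result is not used as support. It stayed a minor part of the pair. COLGALT2 took 5.57%, 7.49% and 6.47% of the counts on both genes with ATRA, and none in the control libraries, where 0 counts allow a share of up to 0.0669%. The floor covers counting error only. The summed level of the pair fell from 143 ± 2.32 to 52.4 ± 1.86 CPM (SD, n = 3 each).

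In order of log2FC, the members that fell ran from LOX through SERPINH1, LOXL1, P4HA2, COLGALT1, PLOD2, P4HA1 and PLOD1 to LOXL2. Neighbours in this order were compared by their ratio within each library, as a description of pairs picked by their values. LOXL1 and P4HA2 differed by 0.03 (SE 0.0360) and COLGALT1 and PLOD2 by 0.16 (SE 0.159) on the log2 scale, and in both the groups overlapped. In the other 6 neighbouring pairs the groups were apart, with the largest step, 1.95 (SE 0.158), between LOX and SERPINH1 and the smallest, 0.06 (SE 0.0252), between P4HA2 and COLGALT1.

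**Figure D3:**
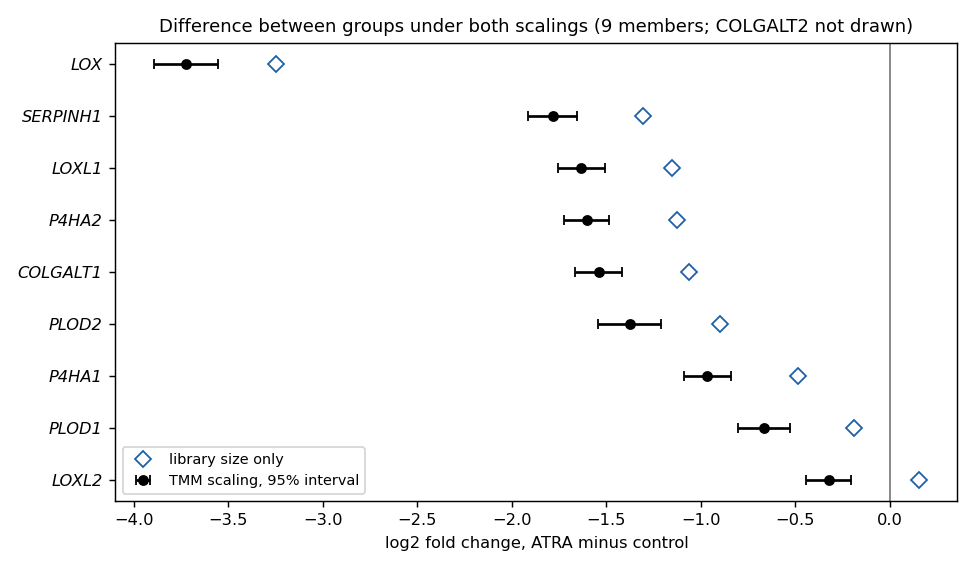
Log2 fold change of the 9 members that have counts in both groups, with TMM scaling (black points, 95% confidence interval from edgeR's fit) and with library size only (blue diamonds). Every member lies further right with library size only, and LOXL2 moves from -0.32 to 0.16, across the line at 0.

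The collagen chains on which these enzymes act fell as well. A list of 10 collagen chains and elastin had 11 of 11 genes called lower, as were 38.7% of all genes tested. Its median log2FC was -3.01, beside 0.04 for all genes tested. COL1A1, which encodes the α1 chain of type I collagen, fell from 27440.1 ± 123 to 558 ± 24.9 CPM (SD, n = 3 each, log2FC -5.62, SE 0.0721). COL3A1, COL6A2 and COL1A2 had a log2FC of -4.77, -4.23 and -3.87. The collagen IV chain genes COL4A1 and COL4A2 fell least of the 11, with a log2FC of -0.79 and -1.23.

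Each member was therefore set against the summed counts of COL1A1 and COL1A2 within a library. All 10 ratios were higher in every ATRA library than in every control library, as were those of 97.1% of all genes tested, because the denominator itself fell so far. That count therefore says nothing about the members, and only the sizes are of use (exact permutation test, two-sided, p = 0.1 for each, the smallest possible, and 0.1 after adjustment over the 10). The ratio of LOX rose least, by 0.75 on the log2 scale (SE 0.147), or 1.68-fold. Those of SERPINH1, LOXL1, P4HA2, COLGALT1 and PLOD2 rose by 2.70 to 3.09. Those of P4HA1, PLOD1 and LOXL2 rose by 3.52, 3.82 and 4.16, the last of these being 17.8-fold. Relative to type I collagen transcripts, LOX thus stayed nearest to its control proportion, and LOXL2 moved furthest among the members with counts in both groups. All 10 ratios share the same denominator, so their order and spacing repeat those of the members' log2FC and are no separate result.

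Other genes of the collagen pathway were read from 6 lists with 37 genes, of which 36 were tested. Of these, 23 fell and 9 rose at an adjusted p under 0.05, and 4 were not called, beside 38.7% of all genes tested that fell and 40.9% that rose. With library size only, 20 fell and 14 rose, beside 22.7% and 62.9% of all genes. The median log2FC was -0.81. The difference between steps was not tested.

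Among 7 further genes of prolyl hydroxylation, 7 fell, where 38.7% of all genes tested fell. CRTAP and PPIB encode parts of the prolyl 3-hydroxylase complex. CRTAP fell from 413 ± 11.6 to 128 ± 3.90 CPM and PPIB from 1412 ± 80.4 to 510.04 ± 57.4 CPM (SD, n = 3 each, log2FC -1.69 and -1.47). P4HA3, the third α subunit gene, had a log2FC of -1.72, and P3H2, a prolyl 3-hydroxylase gene, had -1.56. With library size only, 6 of the 7 were called lower and none higher, beside 22.7% and 62.9% of all genes.

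Of 5 further genes of lysyl hydroxylation and folding, 2 fell, 2 rose and 1 was not called. Of all genes tested, 38.7% fell and 40.9% rose. P3H4 and FKBP10, whose products assist lysyl hydroxylation, had a log2FC of -2.02 (SE 0.0625) and -1.63 (SE 0.0636). TMEM38B, an endoplasmic reticulum cation channel gene, rose from 3.36 ± 0.329 to 8.92 ± 0.253 CPM (SD, n = 3 each, log2FC 1.41). In the export of procollagen from the endoplasmic reticulum, 3 of 6 genes rose, 2 fell and 1 was not called. These counts are near the shares of all genes (40.9% higher, 38.7% lower). None of the 6 passed the fold threshold. With library size only 5 rose and none fell, where 62.9% of all genes rose.

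Of 7 tested genes of propeptide removal, 6 fell and 1 rose, where 38.7% of all genes fell and 40.9% rose. PCOLCE and PCOLCE2 encode enhancers of the C-proteinase. PCOLCE2 fell from 424 ± 14.6 to 23.3 ± 0.979 CPM and PCOLCE from 1012 ± 41.6 to 197 ± 10.9 CPM (SD, n = 3 each). TLL2, a gene of the tolloid-like proteinases, had a log2FC of -3.79 and ADAMTS3, an N-proteinase gene, had -2.98. ADAMTS14, which encodes another N-proteinase, rose from 8.85 ± 0.474 to 136 ± 1.28 CPM (SD, n = 3 each, log2FC 3.94, SE 0.0717). ADAMTS2, the best known N-proteinase gene, had a log2FC of -1.77.

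In the crosslinking step, 6 of 6 further genes fell, where 38.7% of all genes tested fell. POSTN encodes periostin, which helps the activation of lysyl oxidase by its proteinase. It fell from 689 ± 17.2 to 3.03 ± 0.446 CPM (SD, n = 3 each, log2FC -7.83, SE 0.0917). FBLN5 and EFEMP2 encode fibulins that bind lysyl oxidases in elastic fibre assembly, and their log2FC was -4.17 and -2.12. LOXL4 and LOXL3, the other members of the oxidase family, had a log2FC of -2.49 and -1.19. The direction of all 6 was the same with library size only.

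Of 5 genes of cofactor supply, 3 rose and 2 were not called, where 40.9% of all genes rose. With RLE scaling 2 rose, and with library size only 5 did, where 62.9% of all genes rose. Of the 3, SLC23A2, a vitamin C transporter gene, had a log2FC of 0.20 with overlapping groups, and SLC23A1, another, had 1 to 10 counts in the control libraries. SLC23A1 passed the filter on its ATRA libraries alone, so its call is a description only. Of those that passed the fold threshold, only SLC31A1 had a mean of 1 CPM or more. SLC31A1, the copper importer gene, rose from 86.3 ± 6.06 to 265 ± 16.0 CPM (SD, n = 3 each, log2FC 1.62, SE 0.0651). ATP7A, which encodes the pump that supplies copper to lysyl oxidase, had 13.0 ± 1.48 CPM in the control group and 12.9 ± 3.41 CPM with ATRA (SD, n = 3 each) and was not called. Its log2FC was -0.01 with TMM, and the sign turned with upper-quartile scaling and with library size only.

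**Figure D4:**
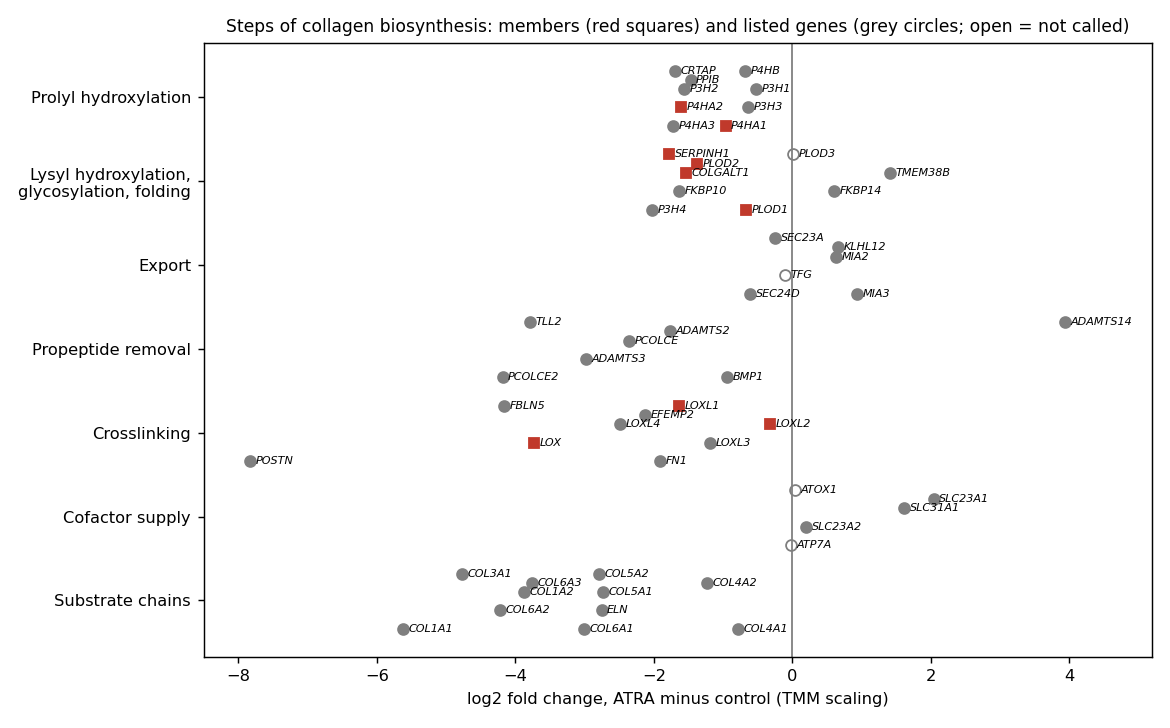
Log2 fold change (ATRA minus control, TMM scaling) of the members (red squares) and of the listed genes at each step of collagen biosynthesis (grey circles, open where not called). The members sit left of 0, and all but LOXL2 lie within the range of the listed genes of their step. LOXL2, at -0.32, lies to the right of the listed crosslinking genes. The substrate chains reach -5.62, and ADAMTS14 stands apart at 3.94. COLGALT2 is not drawn because it had no control counts.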

How the data were processed

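The authors deposited a table of raw read counts per gene, without normalization, for 6 libraries with GO and KEGG annotation. The study's methods give poly(A) selection on oligo(dT) beads, then fastp and TrimGalore to clean the reads. HISAT2, featureCounts and DESeq2 are named in the submitters' processing notes without versions. The genome build, annotation and use of strand are not given in the sources used here. An unnamed gene of the RefSeq goat table overlaps P4HA1 and no other member overlaps a gene. All 15944 gene identifiers matched that table (assembly ARS1.2), whose coordinates were used only to look for these overlaps. No sequences are shown and levels are not per length, because only gene names and spans were at hand.

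Genes were filtered with edgeR's filterByExpr, scaled by TMM and tested on all 6 libraries with edgeR's quasi-likelihood test (robust, two-sided) and Benjamini-Hochberg adjustment over 12588 genes. The SE is the absolute log2FC over the square root of F. The study's t.test function was run as an alternative, since the values are counts. Ratios used 0.5 added to each count. No pair of replicates matched within sampling noise (chi-square over its degrees of freedom at least 5.01). The labels put all libraries in batch 1, and p-values measure the spread between these cultures. Since the animal of each library is not given, they are not read as a spread between animals. The common biological coefficient of variation in edgeR's fit was 0.0669. The members and gene lists were chosen with earlier results of these data known. Beyond the 10 members, genes named were those with an adjusted p under 0.05, a log2FC beyond 1 and a mean of at least 1 CPM, at most 4 a list in each direction. P4HB, PLOD3, LOXL3, ATP7A, ADAMTS2, SLC23A1, SLC23A2, COL4A1, COL4A2, ACTA2 and the other cell markers were named after their values were seen. Alternatives were other scalings, filters, tests and thresholds, a block for the replicate number, and fits that left out 1 library at a time. The tests were tested on simulated data. The fits ran in edgeR 4.0.16 and DESeq2 1.42.0 under R 4.3.3, with limma 3.58.1 loaded by edgeR. Figures were drawn with matplotlib 3.10.9 (Python 3.11.15).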

Additional observations from a re-analysis of the deposited data

How the results depend on the processing

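The counts of members called (1 higher, 9 lower) were the same under every scaling, filter and test tried other than library size only, which gave 2 higher and 8 lower, and without each library in turn. The fold threshold left 6 lower. With library size only, the log2FC of LOXL2 reversed to 0.16. Of 180 alternative values of the members' log2FC, 176 kept their direction and call, and 3 more (LOXL2, PLOD1 and P4HA1) missed only the fold threshold. COLGALT2 gave 18 of the 176. With 0 counts in each control library its direction could not change, so these 18 values and its call are a description only. Without each library in turn, the log2FC of LOX ranged from -3.83 to -3.66 and that of PLOD2 from -1.51 to -1.32, both lowest without ATRA replicate 2. The fitted log2FC of COLGALT2, from 2.13 with the t.test function on log2(CPM + 1) to 10.22 with library size only, depends on the value added to 0 counts. In the 6 collagen lists, 9 genes were called higher, against 14 with library size only and 4 with the fold threshold. The median of the lysyl hydroxylation and folding list, 0.01, turned to -0.0100 with RLE scaling, -0.00995 with DESeq2, and -0.0013 without the expression filter, and lay between -0.0387 and 0.0532 without each library in turn. The median of the heat shock list turned from -0.07 to 0.0091 with upper-quartile scaling and 0.41 with library size only. The direction of every ratio was kept with 5 added to each count and without each library.

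Same-numbered libraries did not deviate together (correlation across genes 0.0892, 0.0299 and -0.0764), so the numbers were not taken as pairs. With the replicate number as a block, 1 member was higher and 9 lower, the log2FC of LOX was -3.73 and no member's call changed. Not every library correlated best with its own number. Depth does not limit the 9 members with 2051 counts or more in each library. For COLGALT2, 0 counts in a control library allow up to 0.0967 CPM.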

Other observations

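LOX, PLOD2 and P4HA1 are known as hypoxia-inducible genes in many cell types, and SERPINH1 as a heat shock gene, so both lists were read beside them. Of 12 hypoxia targets, 10 rose and 2 fell with ATRA (adjusted p under 0.05, edgeR's quasi-likelihood test), with a median log2FC of 2.52 beside 0.04 for all genes tested, of which 40.9% rose and 38.7% fell. BNIP3, a mitophagy receptor gene, rose from 51.1 ± 1.64 to 460.5 ± 12.3 CPM, and SLC2A1, a glucose transporter gene, from 82.9 ± 1.11 to 628 ± 25.3 CPM (SD, n = 3 each). EGLN3, which encodes an oxygen-sensing prolyl hydroxylase, had a log2FC of 2.87 and NDRG1 had 2.67. ADM, which encodes adrenomedullin, fell from 939 ± 22.1 to 235 ± 12.2 CPM (SD, n = 3 each). CA9, 1 of the 10 that rose, had 4, 1 and 3 counts in the control libraries and 57, 75 and 65 with ATRA. CA9 passed the filter on its ATRA libraries alone, so its call is a description only. LOX, PLOD2 and P4HA1 fell in libraries where 10 of these 12 genes rose, and with library size only 10 were still called higher. LOXL2 also carries the GO term response to hypoxia, and its direction depended on the scaling. Of 8 tested heat shock genes, 3 rose, 4 fell and 1 was not called, which is near those shares of all genes, and none went beyond 1 on the log2 scale. With library size only, 5 rose and 1 fell, beside 62.9% and 22.7% of all genes. SERPINH1 fell by 1.78 on the log2 scale. Whether hypoxia or heat shock signalling bears on any member was not tested.

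Within the ATRA-treated group, LOX, PLOD2 and COLGALT2 varied most among the members, with coefficients of variation of 12.3% for LOX and 14.6% for PLOD2, against 6.04% or less for the other 7 members. ATRA replicate 2 held the highest level of LOX, PLOD2, P4HA1, PLOD1 and COLGALT2 and the lowest of LOXL1, LOXL2, P4HA2, SERPINH1 and COLGALT1. Across genes, that library also differed more from ATRA replicates 1 and 3 (chi-square over its degrees of freedom 18.4 and 17.3) than these did from each other (5.01). Which property of ATRA replicate 2 goes with the members' pattern was not tested.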
